A study of Rattus norvegicus with 4 samples.

Results

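Integrins, extracellular matrix proteins and their enzymes, and cadherins were followed by 20 of the 1185 spots of a nylon cDNA array (1176 spots for genes and 9 housekeeping spots) in mesenteric white adipose tissue. The members were the spots whose gene name in the array files contained integrin, collagen, laminin, fibronectin, metalloproteinase, proteoglycan, syndecan, cadherin, osteopontin or thrombospondin, with no use of measured values. They comprised 4 integrin spots, 3 proteoglycans, 4 cadherins, 5 matrix metalloproteinases and 4 spots for metalloproteinase inhibitors and a procollagen-processing enhancer. No name held laminin, osteopontin or thrombospondin, fibronectin appeared only as the receptor of that protein, and collagen only within the name of the enhancer, so no fibrous matrix protein was itself measured among them. The study asked whether oleoyl-estrone (OE), the oleic acid ester of estrone, given over a short time alters the transcripts of lipid metabolism genes in this tissue, and the array also carried the spots described here. The OE group consisted of female Wistar rats dosed orally on 2 days with OE (10 μmol/kg each day, carried in 0.2 ml of sunflower oil), and tissue was collected at 48 h. The control group of the same sex and strain had the oil without OE. Labelled cDNA made from 5 μg of total RNA of each of 2 control rats and 2 OE rats was hybridised, 1 rat per array (control 1, control 2, OE 1 and OE 2). The ages of the rats were not given in the sources used here.

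Integrins are membrane receptors made of an alpha and a beta chain that tie cells to matrix proteins, and the beta 1 chain pairs with many alpha chains, among them alpha 1 in a collagen receptor. Cadherins join cell to cell, while syndecans and glypicans are heparan sulphate proteoglycans of the cell surface. Matrix metalloproteinases cut matrix proteins and are inhibited by the tissue inhibitors of metalloproteinases (TIMPs), and in fat depots the matrix is remodelled as adipocytes grow or shrink.

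The adjusted intensity, which is the spot intensity minus the background in scanner units, had array medians of 14 and 9 in the controls and 22 and 17 in OE rats, with backgrounds between 54 and 61. A spot counted as detected once this value reached 2 times the background, a limit of 108 to 122 units. In tissue RNA, fewer cells of a type and less RNA per cell cannot be told apart. The adipocyte marker FABP4, a fatty acid-binding protein, was detected on every array. The summed adjusted intensity of 4 adipocyte markers was 3734 and 20261 in the controls and 9383 and 8863 in OE rats. FABP4 alone made up 3532 and 19033 of this in the controls and 8811 and 8512 in OE rats. The other markers were lipoprotein lipase, hormone-sensitive lipase and fatty acid synthase. The paper reports lower transcripts of all these adipocyte markers after OE, for hormone-sensitive lipase without significance. Their sum is therefore no neutral measure of adipocytes between the groups. The sum of 10 leukocyte markers was 3574 and 216 in the controls and 6168 and 2386 in OE rats. Control 2 thus held the highest adipocyte sum and the lowest leukocyte sum, and 4 of the 10 leukocyte markers (CD3 zeta, CD8, CD28 and CD30) were at 0 there. The sum of both mesothelial markers was 443 on control 2 and 49 to 131 on the other arrays. The part of these differences in the results was not tested, and values without single arrays are given for the members whose ratio turned on 1 array.

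As on the array as a whole, few of the adhesion and matrix transcripts stood clear of the background. Of the 20 members, 4 were detected on at least 1 array, against 279 of the 1176 genes (23.7%). Integrin beta 1 and TIMP-1 were detected on all 4 arrays, which 8.08% of all genes were, and integrin alpha 1 and TIMP3 on OE 1 only. The other 16 members had adjusted intensities of 3 to 80, and 14 of the 20 lay under the background itself on all 4 arrays. Ratios of these 16 are ratios of values under the limit and are given as descriptions of a weak signal.

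**Figure D1:**
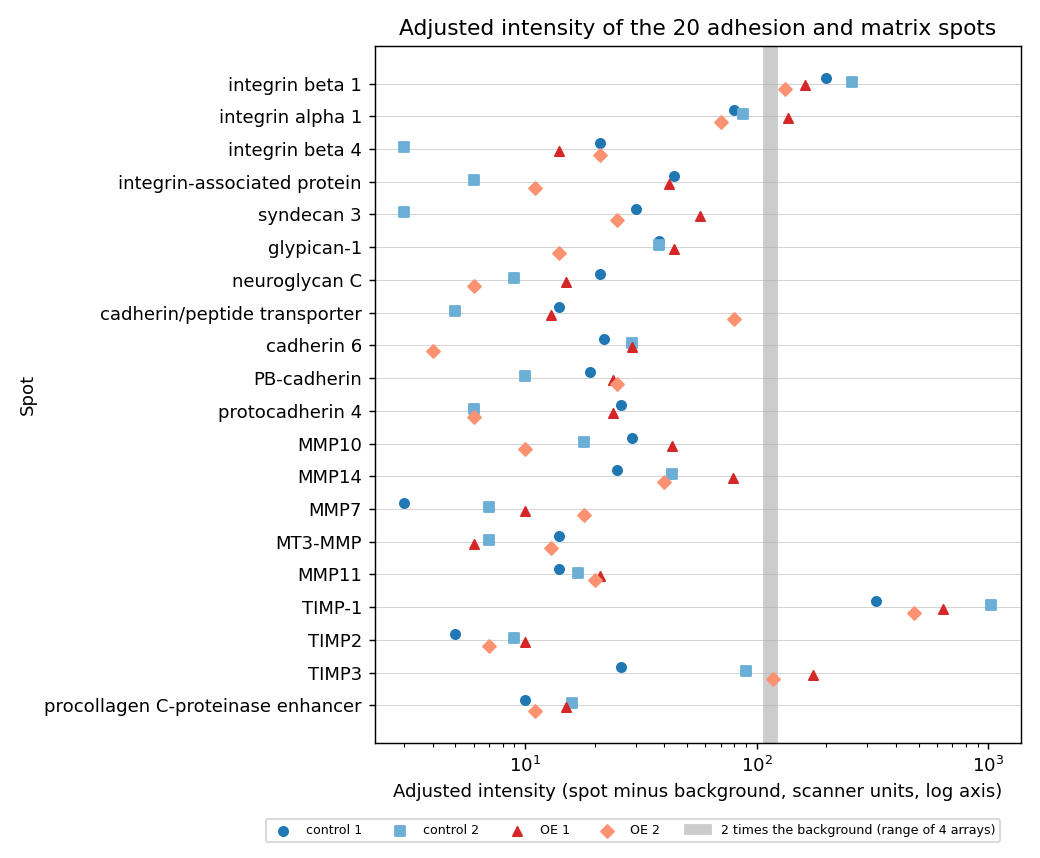
Adjusted intensity (spot minus background, scanner units, log axis) of the 20 spots on control 1, control 2, OE 1 and OE 2. The grey band marks 2 times the background, 108 to 122 units, and integrin beta 1 and TIMP-1 are the members that lie to its right on all 4 arrays.

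The promoters of the 2 members detected on all 4 arrays are shown for their sequence context, although the arrays measured no promoter. RefSeq symbols were found for 19 of the 20 members, and RefSeq promoters on build GRCr8, from 250 bases before to 50 after the start, for 13. Capitals mark the Sp1 box GGGCGG, sought on both strands, so that CCGCCC is the same box on the opposite strand.
Integrin beta 1 (Itgb1), chr19:73602027-73602326, plus strand: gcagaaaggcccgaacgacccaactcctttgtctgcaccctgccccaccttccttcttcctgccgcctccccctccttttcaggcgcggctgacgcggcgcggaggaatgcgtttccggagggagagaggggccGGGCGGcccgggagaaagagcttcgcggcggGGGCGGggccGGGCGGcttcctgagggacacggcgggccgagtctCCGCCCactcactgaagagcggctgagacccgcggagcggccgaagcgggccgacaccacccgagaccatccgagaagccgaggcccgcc
TIMP-1 (Timp1), chrX:3771073-3771372, minus strand: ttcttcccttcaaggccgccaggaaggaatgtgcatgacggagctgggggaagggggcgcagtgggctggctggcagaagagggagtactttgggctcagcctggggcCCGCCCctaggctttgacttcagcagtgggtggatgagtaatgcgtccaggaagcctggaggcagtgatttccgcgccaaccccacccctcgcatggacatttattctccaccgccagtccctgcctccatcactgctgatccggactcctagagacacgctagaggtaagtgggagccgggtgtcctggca
The box occurred 4 times before integrin beta 1 and 1 time before TIMP-1, in 9 of the 13 member promoters, and in 33.1% of all 33469 promoters of this length. The half-site GGTCA of nuclear receptors, searched on both strands, occurred in neither window, in 2 of the 13 (MMP10 and TIMP3) and in 40.5% of all promoters. The AP-1 site TGANTCA, where N is any base, was found in 2 of the 13, those of MMP10 and MMP7, and in 7.33% of all. These matches overlap no other motif searched in the windows printed, and they describe letters, not binding sites or causes.

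After OE treatment 14 of the 20 members (70.0%, against 57.5% of all spots) had a ratio to control under 1 in the scaled values, but none passed the test across arrays. Each adjusted intensity was divided by the median of its array, and the lowest values were raised to a floor of 0.235 array medians, below which 10% of the scaled values above 0 lay. Spots above this floor in both rats of either group were kept, which left all 20 members and 922 spots in total. The ratio of the OE mean to the control mean was under 0.5 for 5 of the 20 members, against 18.3% of the 922. It was over 1.5 for 2 of the 20, against 18.9%. The groups did not overlap, with OE lower, for 7 of the 20 members, against 15.8%, and with OE higher for 0 of the 20, against 14.1%. Of these 7, only integrin beta 1 was detected on any array. Both counts hung on the scaling. Without scaling they were 1 and 4 (all spots 3.35% and 37.0%). Scaled to the housekeeping spots they were 13 and 0 (all spots 45.3% and 3.53%). Of the counts past the cutoffs, that under 0.5 was above and that over 1.5 below the share of all spots, in a list of only 20. No difference from any of these shares was tested. The median log2 ratio was -0.61 over the members and -0.16 over all 922 spots. limma, fitted on all 922 with Benjamini-Hochberg adjustment, called 0 of the 20 members and 0 of 922 spots (0%), with adjusted p from 0.957 to 0.998 for the members. At an unadjusted p under 0.05, limma gave 0 of the 20 members and 19 of the 922. Scaling set the direction of the list: scaled to the housekeeping spots the median log2 ratio was -1.35 for the members and -0.91 for all spots, and without scaling it was 0.23 and 0.63. Under each of the 6 scalings compared, the median of the members lay below that of all spots, by 0.40 to 0.57 on the log2 scale. Most of these scalings divide each array by 1 number, so members and all spots shift much alike and the gap could change little. The gap was 0.09 without background subtraction or with normexp, and 0.28 without control 2.

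Integrin beta 1 (Itgb1), the shared beta chain of many matrix receptors and named in the files also as the fibronectin receptor beta subunit, had the lowest ratio of the integrins. Its adjusted intensity was 199 and 259 in the controls and 161 and 132 in OE rats. Both OE arrays lay below both controls before any scaling, and the OE arrays lay close together once scaled. In array medians controls averaged 21.5 ± 10.3 (SD, n = 2) and OE rats 7.54 ± 0.316 (SD, n = 2), a ratio of 0.351. The limma log2 change was -1.42 with a standard error of 0.65, and the adjusted p by the Benjamini-Hochberg method was 0.957. It was the 1 member whose OE values lay below both control values under all 6 scalings, which held for 32 of the 922 spots (3.47%). The size of the ratio moved with them, from 0.223 (housekeeping spots) to 0.640 (no scaling). Without background subtraction it was 0.608 and with normexp 0.618, so that there, as without scaling, it was not under the cutoff of 0.5. It was 0.262 without control 1 and 0.531 without control 2, and 0.361 and 0.340 without OE 1 and OE 2.

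Integrin alpha 1 (Itga1), the partner of beta 1 in a collagen receptor, had adjusted intensities of 80, 87, 136 and 70 on control 1, control 2, OE 1 and OE 2. It passed the detection limit on OE 1 alone, and once scaled (5.71 and 9.67 against 6.18 and 4.12 array medians) the groups overlapped. Its ratio was 0.670, with 0.418 under housekeeping scaling and 1.23 without scaling, so its direction was not settled. Integrin beta 4 (Itgb4), the partner of alpha 6 in the hemidesmosomes of epithelia, gave 21, 3, 14 and 21. Integrin-associated protein (Cd47), a membrane partner of integrins that also signals to phagocytes, gave 44, 6, 42 and 11. Both were under the limit on all 4 arrays, both were over 4-fold lower on control 2 than on control 1 as scaled, and their ratios were 1.02 and 0.671. Without control 1 and without control 2 these were 2.81 and 0.624 for integrin beta 4, and 1.92 and 0.407 for integrin-associated protein.

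**Figure D2:**
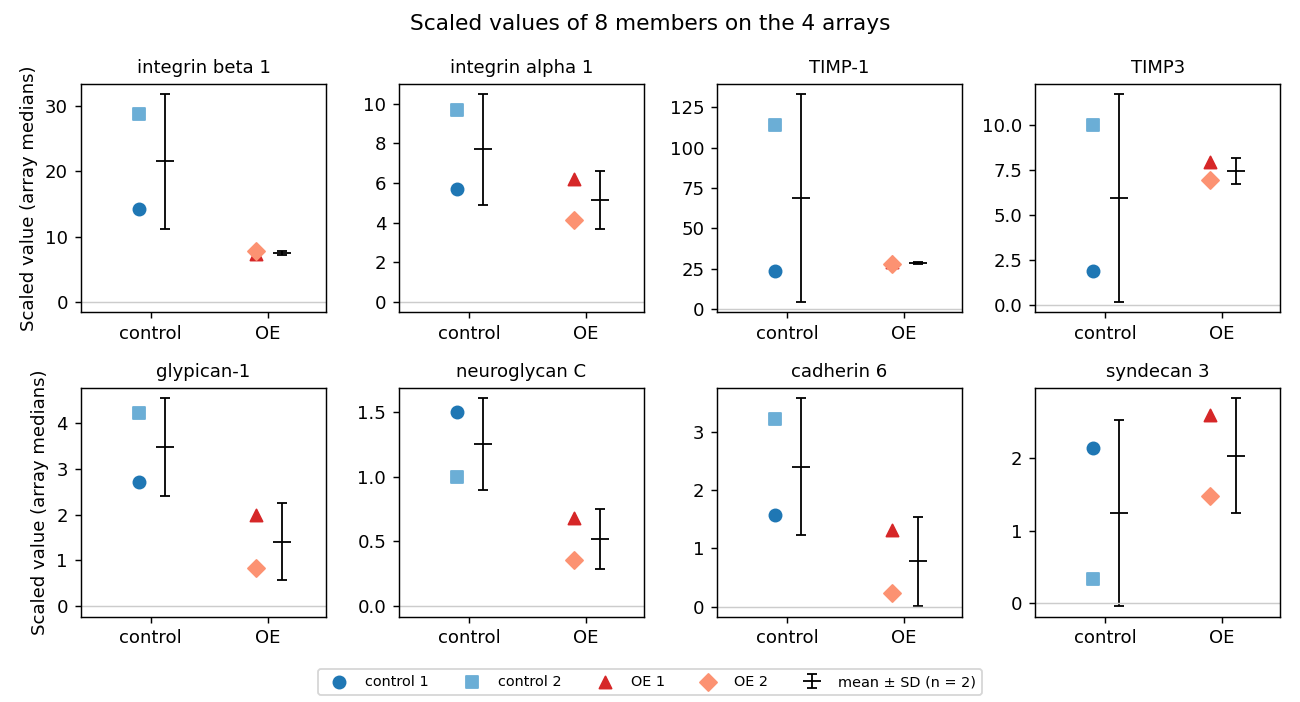
Scaled values (adjusted intensity in array medians) of 8 members on 2 control and 2 OE arrays, with the mean ± SD of each group (n = 2) in black. Integrin beta 1, glypican-1, neuroglycan C and cadherin 6 have both OE points below both control points, while for TIMP-1 and TIMP3 control 1 lies below both OE points and control 2 above them.

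Among the proteoglycans, 2 of 3 had a ratio under 0.5 (18.3% of all spots) with groups that did not overlap (15.8% with OE lower), all at intensities under the limit. Glypican-1 (Gpc1), a lipid-anchored heparan sulphate proteoglycan that binds growth factors, gave adjusted intensities of 38 and 38 in controls and 44 and 14 in OE rats. Its scaled values were 2.71 and 4.22 against 2.00 and 0.824 array medians, so that the groups were apart only after scaling. The ratio was 0.407, and limma gave a log2 change of -1.40 with a standard error of 0.73 and a Benjamini-Hochberg adjusted p of 0.957. The ratio was 0.520 without control 2, 0.577 without OE 2 and 0.237 without OE 1. Neuroglycan C (Cspg5), a chondroitin sulphate proteoglycan known from the nervous system, gave 21 and 9 in controls and 15 and 6 in OE rats. Scaled, it was 1.5 and 1.0 against 0.682 and 0.353 array medians, a ratio of 0.414 with a limma log2 change of -1.32 (standard error 0.67). Its ratio was 0.517 without control 1 and 0.545 without OE 2, and rested on intensities of at most 21 units, under the background of 54 to 61. Syndecan 3 (Sdc3), a transmembrane heparan sulphate proteoglycan, gave 30, 3, 57 and 25. It is named for its ratio of 1.64, after its values were seen, and its groups overlapped. Control 2 alone was low, and without it the ratio was 0.948, while without control 1 it was 6.09.

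The cadherins held the lowest and the highest ratio of all members, and both rested on values under the detection limit. Cadherin 6 (Cdh6), the kidney cadherin, gave adjusted intensities of 22, 29, 29 and 4 on control 1, control 2, OE 1 and OE 2. OE 2 alone was low and was set to the floor. Scaled, the values were 1.57 and 3.22 against 1.32 and 0.235 array medians, a ratio of 0.324, with a limma log2 change of -2.01 (standard error 1.02, Benjamini-Hochberg adjusted p of 0.957). Without OE 2 the ratio was 0.550, and without OE 1 it was 0.0982. PB-cadherin (Cdh22), first described in pituitary and brain, gave 19, 10, 24 and 25 and a ratio of 1.04, and protocadherin 4 gave 26, 6, 24 and 6 and a ratio of 0.572. The ratio of protocadherin 4 was 1.08 without control 1, 0.389 without control 2 and 0.280 without OE 1.

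The cadherin of the proton-driven peptide transporter (Cdh17), known as liver-intestine cadherin for its place on the epithelium of the gut, had the highest ratio, 3.41, and is named after its values were seen. Its adjusted intensity was 14, 5, 13 and 80, so OE 2 alone was high and the groups overlapped. Without OE 2 the ratio was 0.760. The 4 intestinal markers, genes of the absorptive epithelium, were detected on OE 2 and on no other array. Their summed adjusted intensity was 4629 there, against 27 on control 1, 11 on control 2 and 67 on OE 1. Intestinal fatty acid-binding protein (I-FABP) gave 12, 6, 11 and 1690, and apolipoprotein A-IV gave 5, 5, 22 and 1433. Liver fatty acid-binding protein (L-FABP) was at 0 on both controls and apolipoprotein A-I at 0 on control 2. The part of this array-specific signal in the ratio of the cadherin was not tested.

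**Figure D3:**
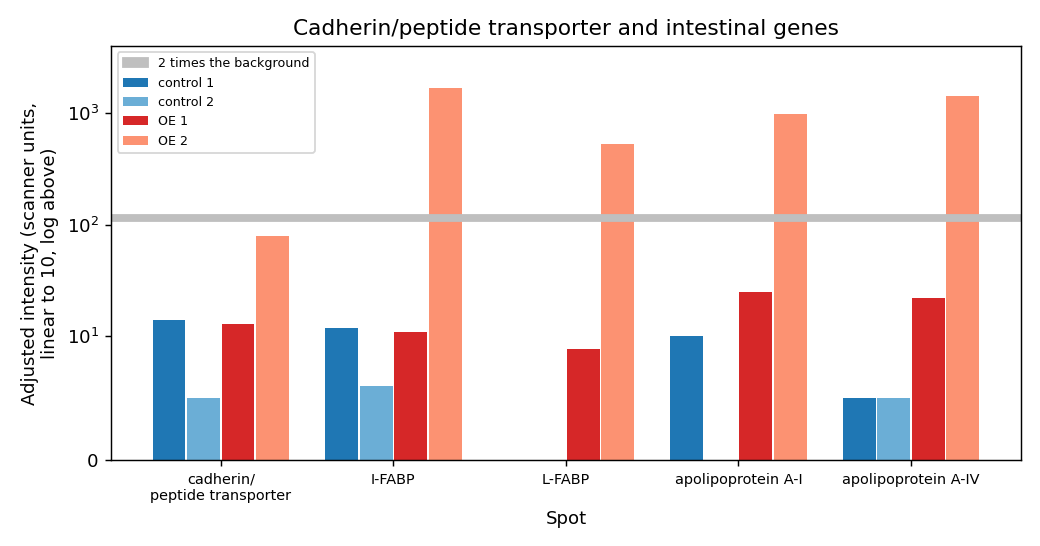
Adjusted intensity (scanner units, linear to 10 and logarithmic above) of the cadherin/peptide transporter and of 4 intestinal markers on each array. The cadherin reaches 80 on OE 2, under the grey line of 2 times the background, while the markers reach 525 to 1690 on OE 2 and at most 25 on the other arrays.

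None of the 5 matrix metalloproteinases among the members was detected on any array, and their ratios lay between 0.584 and 1.49. Gelatinase A, outside the name rule, is described below. MMP14 (membrane type 1), which activates gelatinase A at the cell surface, gave 25, 43, 79 and 40 on control 1, control 2, OE 1 and OE 2, and its ratio was 0.906 (1.66 without control 2). MMP10 (stromelysin 2) gave 29, 18, 43 and 10, and MT3-MMP (Mmp16), a further membrane-bound enzyme, gave 14, 7, 6 and 13. After scaling, though not before it, both had OE values below both control values, as did 15.8% of all spots. The nearest pairs were 2.00 against 1.95 and 0.778 against 0.765 array medians, and the ratios were 0.625 and 0.584. The ratio of MMP10 was 0.289 without OE 1 and 0.960 without OE 2, and that of MT3-MMP 0.860 and 0.307. MMP7 (matrilysin) gave 3, 7, 10 and 18 and a ratio of 1.49, just inside the upper cutoff of 1.5, with control 1 at the floor. It was 3.22 without control 2, 0.897 without OE 2, and 1.90 when scaled to the 75th percentile. MMP11 (stromelysin 3) gave 14, 17, 21 and 20 and a ratio of 0.738.

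For the inhibitors of these enzymes and the procollagen C-proteinase enhancer, the controls disagreed in 1 direction. As scaled, all 4 (TIMP-1, TIMP2, TIMP3 and the enhancer) were over 2-fold higher on control 2 than on control 1. Of all 922 spots, 57.6% were over 2-fold apart between the controls in either direction. That share counts both directions, so it is no direct background for 4 spots that all went 1 way. Unscaled, TIMP2 (5 and 9) and the enhancer (10 and 16) were under 2-fold apart, at intensities under the background. Between the OE arrays 0 of the 4 differed by over 2-fold, against 22.5% of all spots. TIMP-1 (Timp1), a secreted inhibitor of most metalloproteinases, had adjusted intensities of 327 and 1029 in the controls and 639 and 476 in OE rats. The OE values lay between the controls, scaled as well as unscaled. In array medians controls averaged 68.8 ± 64.3 (SD, n = 2) and OE rats 28.5 ± 0.739 (SD, n = 2), a ratio of 0.414. This ratio rested on control 2, since it was 0.249 without control 1 and 1.22 without control 2. The limma log2 change was -0.86 with a standard error of 0.92 and a Benjamini-Hochberg adjusted p of 0.957.

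TIMP3 (Timp3), the inhibitor that stays bound to the matrix, gave 26 and 90 in controls and 175 and 118 in OE rats. Unscaled, both OE values lay above both controls, but scaled they lay between them (1.86 and 10.0 against 7.95 and 6.94 array medians). Its ratio of 1.26 was 0.745 without control 1 and 4.01 without control 2. TIMP2 (Timp2) gave 5, 9, 10 and 7 and a ratio of 0.638. The procollagen C-proteinase enhancer (Pcolce), which speeds the trimming of fibrillar procollagens, gave 10, 16, 15 and 11, with both OE values just below both controls as scaled and a ratio of 0.533. Without control 2 the ratios of these last 2 were 1.21 and 0.930.

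Over all members, the 2 controls were over 2-fold apart for 12 of 20 (60.0%, against 57.6% of all 922 spots), 8 of them higher and 4 lower on control 2. The OE arrays differed by over 2-fold for 8 of 20 (40.0%, against 22.5%). Without control 2 the count of members under 0.5 was 4 and that over 1.5 was 4, against 8.79% and 32.4% of all spots, and the median log2 ratio was -0.13 for the members and 0.15 for all spots. Without OE 1 the member counts were 8 and 2 (all spots 26.5% and 16.4%), and without OE 2 they were 3 and 1 (all spots 17.7% and 20.0%).

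**Figure D4:**
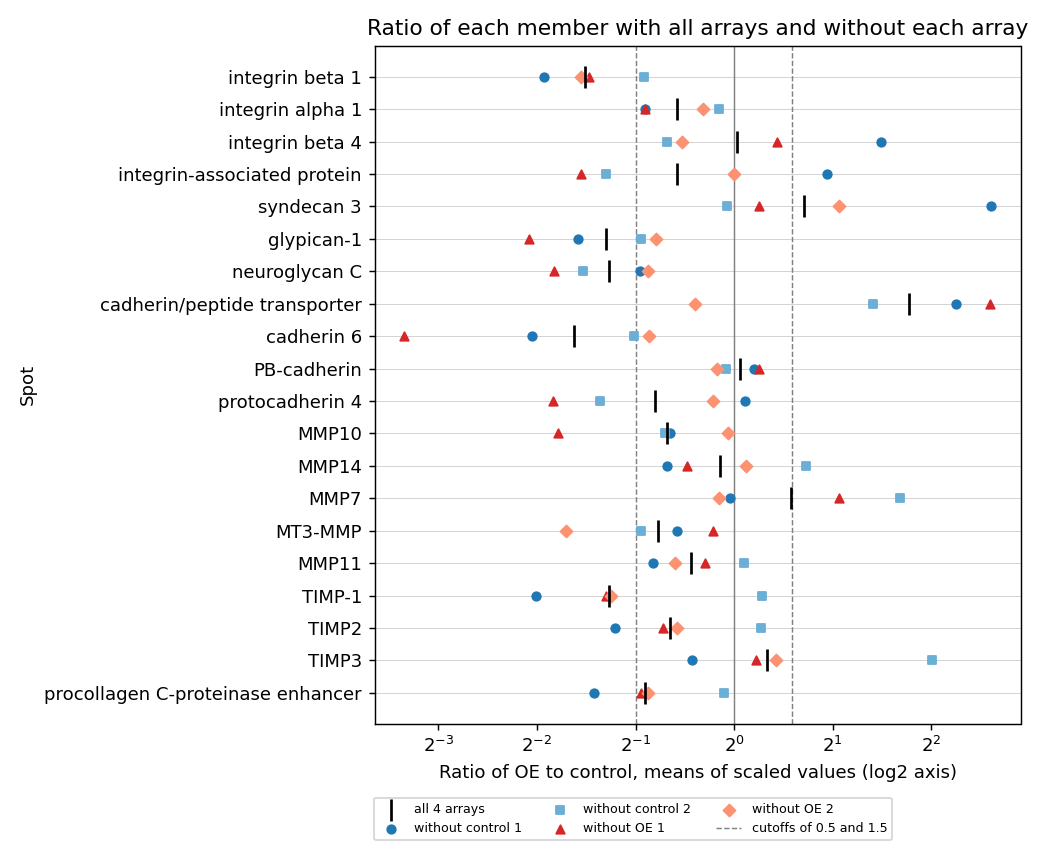
Ratio of OE to control (means of scaled values, log2 axis) for each member with all 4 arrays (black bars) and without each array in turn (symbols), with the cutoffs of 0.5 and 1.5 dashed. Integrin beta 1 stays between 0.262 and 0.531 in all of them, whereas those of TIMP-1, TIMP2 and MMP14, for example, cross 1 when control 2 is left out.

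Which deposited record of OE 1 is read decides the values of the TIMPs. The series value table names its rows without genes, and 933 of the 1185 spots were matched to 1 of its rows by their values on the other 3 arrays. For 240 of them the OE 1 value differed from the array file, 1 being empty and the other 239 equal to the value of the spot before. These spots lie in 1 stretch of 279 spots that holds 7 members, and the OE 1 array file has a blank line just before the first spot of the stretch. For TIMP-1 the table gives 40 on OE 1 where the array file gives 639, and the 639 stands in the row of TIMP2, whose own value was 10. For TIMP3 it gives 0 in place of 175. Over 241 matched spots of the stretch, the correlation of log2(value + 1) between OE 1 and OE 2, a description across spots that are not independent, was 0.883 with the array file and 0.0328 with the table. With the table the ratio of TIMP-1 was 0.217 in place of 0.414, and that of TIMP3 0.605 in place of 1.26, on the other side of 1. The array files were therefore used for every other value.

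**Figure D5:**
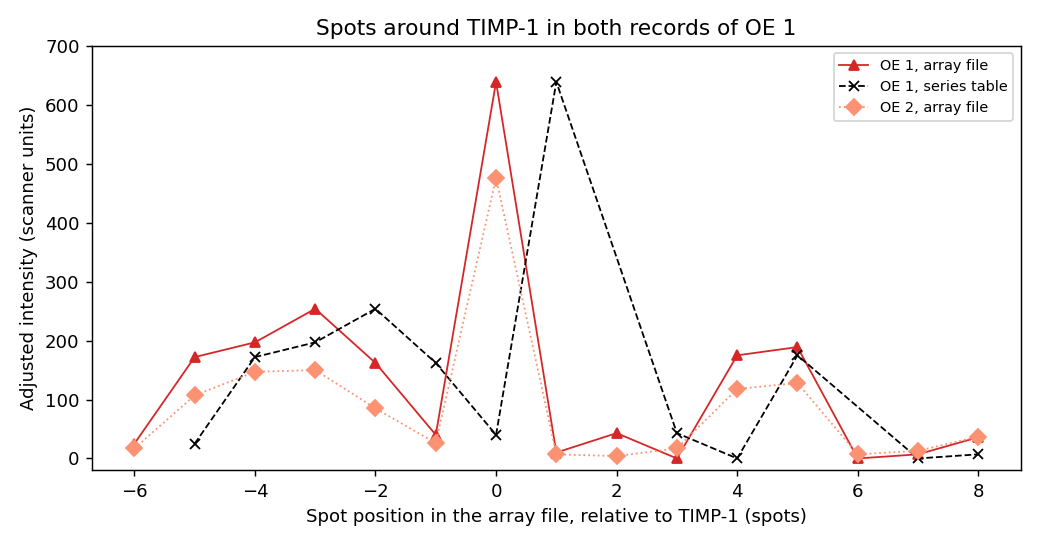
Adjusted intensity (scanner units) against the position of the spot relative to TIMP-1 for OE 1 in its array file, OE 1 in the series value table and OE 2 in its array file, with unmatched table spots left out. The peak of 639 at TIMP-1 stands 1 spot later in the table, while OE 2 peaks with 476 at TIMP-1.

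Other adhesion and matrix genes, outside the name rule, also held 0 called genes. Of 13 such genes (selectins, CD44, focal adhesion proteins and the plasminogen activator system), 11 were kept, of which 5 lay under the lower cutoff (18.3% of all spots) and 0 over the upper one (18.9%), and limma called 0 of them (0 at an unadjusted p under 0.05). After scaling, though not before it, both OE values lay below both controls for 3 of the 11 (15.8% of all spots). These were P-selectin, the urokinase receptor and focal adhesion kinase, all under the limit on every array, with ratios of 0.282, 0.340 and 0.834. Gelatinase A, the metalloproteinase that TIMP2 and MMP14 regulate, gave 26, 264, 139 and 92 on control 1, control 2, OE 1 and OE 2. It was detected on control 2 and OE 1, its OE values lay between the controls, and its ratio was 0.376. The tissue-type plasminogen activator gave 16, 132, 65 and 43, unscaled the same order of the 4 arrays as gelatinase A and TIMP-1. Under the limit, the urokinase-type activator (15, 102, 42 and 35), p130Cas (10, 24, 22 and 15) and the procollagen C-proteinase enhancer shared it. As scaled, it did not hold for the urokinase-type activator, the enhancer or FABP4 (252, 2110, 400 and 501 array medians). The adipocyte markers FABP4 (3532, 19033, 8811 and 8512), lipoprotein lipase and hormone-sensitive lipase and the mesothelial marker WT1 (19, 278, 121 and 37) also had the unscaled order of TIMP-1. Fatty acid synthase (60, 182, 39 and 15) and the other mesothelial marker, retinaldehyde dehydrogenase (30, 165, 10 and 46), did not. CD44, a hyaluronan receptor, gave 66, 6, 138 and 18, and L-selectin, a homing receptor of leukocytes, gave 324, 5, 373 and 165. Both were lowest on control 2, where the leukocyte sum was lowest too, and the part of cell make-up in these values was not tested.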

How the data were processed

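RNA of 2 control and 2 OE rats was measured, 1 rat per array, with groups taken from the labels. The authors deposited intensity values as the image software wrote them (spot, background and adjusted intensity), without scaling between arrays. Each file also held columns of a further array, 12 in all, which were not used, nor were the ratios and differences computed between the arrays of a file. Genes are named as in the files, with symbols from RefSeq (GRCr8). Scaling to the 50th percentile and the cutoffs of 0.5 and 1.5 follow the methods, whose GeneSpring error model filter was not repeated. The groups were tested on the log2 scale by lmFit and eBayes of limma 3.58.1 (R 4.3.3) with no covariate, Benjamini-Hochberg adjustment over 922 spots and a threshold of 0.05, after the script was checked on simulated data. The simulated noise was below the spread of these arrays (standard errors of 0.59 to 1.14 for the members). That check therefore does not show which changes could be called here. The number of arrays limits the precision, and an exact two-sided permutation test of 2 against 2 cannot go below 0.333. Each array is a separate rat, and a p-value rests on the spread between these arrays, which mixes differences between rats and between hybridisations. For this spread limma also draws on all 922 spots. Named with full values were members detected on at least 1 array, and members past a cutoff whose groups did not overlap. The rule for the members reads gene names alone, but members, marker lists and limits were chosen with earlier results of these data known. Alternatives were other scalings, filters and background corrections (normexp, offset 50), the series value table, each array left out, and a replicate block.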

Additional observations from a re-analysis of the deposited data

How the results depend on the processing

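limma called 0 members under each of the 16 alternatives fitted and also in the paired fit with the replicate block, where the smallest adjusted p of a member was 0.991. Over the alternatives without a block the smallest adjusted p of a member ran from 0.188 (without control 1) to 0.999. The replicate numbers of the labels do not pair rats, and the deviations of same-numbered arrays had a correlation of 0.0495 across 922 spots. The counts of members under 0.5 and over 1.5 and the median log2 ratio were 5, 2 and -0.61 as reported. Scaled to genes detected on all 4 arrays, they were 4, 4 and -0.38 (all spots 11.3%, 26.3% and 0.10). Scaled to the housekeeping spots, they were 13, 1 and -1.35 (all spots 45.2%, 5.14% and -0.91). Without scaling they were 0, 6 and 0.23 (all spots 3.04%, 50.7% and 0.63), which reversed the median. With normexp they were 0, 1 and -0.12 (all spots 0.905%, 7.42% and -0.04). With the background left in they were 0, 0 and -0.12 (all spots 0.880%, 6.68% and -0.03). Among the 4 members detected on at least 1 array they were 2, 0 and -0.92 (all 285 spots so detected 20.0%, 13.3% and -0.22). With the series value table, 19 members gave 6 and 4, with a median of -0.68 (all spots 23.0%, 22.4% and -0.25). Leaving out each array in turn, the count under 0.5 ran from 3 to 8, that over 1.5 from 1 to 4 and the median from -0.81 to -0.13. Over all spots the shares ran from 8.79% to 28.7% and from 16.4% to 32.4%, and the median from -0.31 to 0.15. An arm then holds 1 array, which is assumed to vary like the other group. The other scalings and filters changed neither count by more than 1.5 times. With single arrays left out, the ratio of TIMP-1 ran from 0.249 to 1.22 (reversed, without control 2), that of syndecan 3 from 0.948 (reversed, without control 2) to 6.09, and that of the cadherin/peptide transporter from 0.760 (reversed, without OE 2) to 6.05. Syndecan 3 also reversed to 0.843 under housekeeping scaling. The cause was not tested. Signal over background limits all ratios: 18 members were under the limit on at least 1 array, and with the background left in the ratio was 0.608 for integrin beta 1 and 0.683 for TIMP-1.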
